A study of Homo sapiens with 6 samples.

Results

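Semaphorins, ephrins, netrins and slits are the 4 classical families of guidance cues, and plexins, EPH receptors, UNC5 receptors and ROBO receptors are receptor families through which they act. These genes were taken from an RNA-Seq table of 20824 genes by their symbols, and 73 rows were found. Of these rows, 67 are members of the families proper, 37 ligands and 30 receptors. The other 6 are 5 antisense transcripts named after a member and *UNC5CL*, which encodes a protein related to the intracellular end of the UNC5 receptors and is not a netrin receptor. Of the 73 rows, 40 reached a mean of 0.5 RPKM (reads per length of transcript and depth of library) over the 6 libraries and were tested, beside 12805 genes tested in all.

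Guidance cues steer growing axons and migrating cells by attraction or repulsion. Semaphorins signal through plexins, the secreted class 3 members with a neuropilin as co-receptor, and plexins act on small GTPases and the cytoskeleton. Ephrins and EPH receptors sit on neighbouring cells and signal in both directions, the A class ephrins held by a lipid anchor and the B class ephrins spanning the membrane. Netrin-1 attracts through DCC and repels through UNC5 receptors, and slits repel through ROBO receptors. In the mammary gland several of these genes are known from the branching, layering and adhesion of the epithelium.

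The cells were 21NT, a human breast cell line that the study uses as a DCIS-like (ductal carcinoma in situ) and non-invasive model. They were stably transfected with an empty vector (EV), with isoform 1 of the T-box transcription factor TBX3 (TBX3iso1) or with isoform 2 (TBX3iso2). Each of these 3 lines gave 2 mRNA libraries. All 3 lines carried the resistance gene of the vector and were kept under G418 in a medium with insulin, EGF, hydrocortisone and serum. The G418-resistant cells of a transfection had been pooled, so the 2 libraries of a line replicate 1 pool and do not stand for repeated transfections. Whether they came from separate cultures is not given in the sources used here, and the p-values then measure only the spread between these libraries, which may be technical.

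*TBX3* checked the labels: it was at 8.52 and 8.24 RPKM in EV, 13.1 and 11.4 RPKM in TBX3iso1 and 17.5 and 15.5 RPKM in TBX3iso2. The 3 lines did not overlap, and the gene value does not separate the isoforms or the transfected from the native copy. The log2 fold change of *TBX3* against EV was 0.54 with TBX3iso1, under the fold threshold used below, and 0.97 with TBX3iso2, past it. The libraries held 43176600 to 54512400 alignments. Of the epithelial markers fixed for the check (*EPCAM*, *CDH1*, *KRT8*, *KRT18*, *KRT19* and *KRT7*), all 6 were expressed, with a summed level of 2356 to 3123 RPKM per library; *CDH1* was lower with TBX3iso1 and *KRT19* with TBX3iso2 at the threshold used below. Markers of fibroblasts summed to 4.60 to 8.69 RPKM, most of it *COL1A1*, those of endothelial cells to 1.34 to 7.94 RPKM, most of it *PECAM1*, and those of leukocytes to 2.38 to 10.9 RPKM, most of it *CD14*. *PECAM1* and *CD14* were lower in both TBX3 lines than in EV and *COL1A1* was higher, each past the threshold in both comparisons, and their part in the results was not tested. The leukocyte markers *PTPRC* and *CD3E* did not exceed 0.0299 RPKM. Neuron markers summed to 34.8 to 106 RPKM. Of the 3 tested, 2 (*SYT1* and *MAP2*) were lower with TBX3iso1, where 14.1% of all genes were. With TBX3iso2 1 was higher, where 8.94% of all genes were. That gene, *TUBB3*, a tubulin, reached 87.1 and 104 RPKM in TBX3iso2 against 35.0 and 30.6 RPKM in EV, while *SNAP25* and *ELAVL3* stayed at or below 0.066 RPKM in every library. Between the TBX3 lines all 3 tested neuron markers were called higher in TBX3iso2, where 3.47% of all genes were. The log2 differences were 0.86 for *SYT1*, 0.77 for *MAP2* and 1.10 for *TUBB3*, and their part in the results was not tested.

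To be called differentially expressed, a gene needed a fold change over 1.5 beside a Benjamini-Hochberg adjusted p under 0.05 with limma, fitted on log2(RPKM + 0.1) over all 12805 genes. Of the 40 guidance genes tested, 20 differed between TBX3iso1 and EV, 6 higher and 14 lower. Across all genes tested 21.5% were called in this comparison, 7.46% higher and 14.1% lower. TBX3iso2 also differed from EV in 20 of the 40 genes, 4 higher and 16 lower, where 21.2% of all genes were called, 8.94% higher and 12.3% lower. The median log2 fold change of the 40 genes was -0.14 with TBX3iso1 and -0.32 with TBX3iso2, and that of all genes was -0.05 and -0.00. The median with TBX3iso1 was -0.26 without the first TBX3iso1 library, -0.23 without the second EV library and -0.06 with median-ratio scaling, so its size is not settled by these libraries. The median size of the log2 fold change, whatever its sign, was 0.594 and 0.599 for the guidance genes and 0.289 and 0.292 for all genes. In every call the libraries of the 2 lines did not overlap, and uncalled genes such as *EFNA5* and *SEMA4C* did not overlap EV either. The share over all genes was not counted, so this is read no further.

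With the lines set against each other, 8 of the 40 genes differed between TBX3iso2 and TBX3iso1, 1 higher in TBX3iso2 and 7 lower, where 6.29% of all genes were called, 3.47% higher and 2.82% lower. Both comparisons with EV use the same 2 EV libraries, so a gene whose EV libraries sit high or low moves in both. In both comparisons 4 genes were higher (*NTN1*, *ROBO3*, *ROBO4* and *SEMA7A*), against 4.77% of all genes. *ROBO3* and *ROBO4* count among the higher genes of each comparison, and they passed the filter on low values only through the TBX3 lines. Lower in both were 12 genes, against 8.97% of all genes (*EPHB3*, *EPHB6*, *NTN4*, *PLXNA3*, *PLXNB2*, *PLXND1*, *SEMA3F*, *SEMA4A*, *SEMA5A*, *SEMA6B*, *UNC5B* and *UNC5CL*). Among these, *UNC5B* passed the filter on low values only through EV. With TBX3iso1 alone past the threshold were *EFNA4* and *PLXNA2* (higher) and *EPHA1* and *PLXNB1* (lower), and with TBX3iso2 alone *EFNB1*, *EPHB2*, *SEMA3B* and *SLIT2* (all lower). No guidance gene was called in opposite directions, and 0.219% of all genes were, so the count of 0 among 40 is read no further. Of the 8 genes past the threshold with 1 isoform, *EFNB1*, *SEMA3B* and *SLIT2* were also called between the TBX3 lines. *EPHB2* and *EPHA1* differed there under the fold threshold, by -0.51 (limma adjusted p = 0.00912) and 0.47 (limma adjusted p = 0.0243), and *EFNA4*, *PLXNA2* and *PLXNB1* had a limma adjusted p over 0.05.

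How libraries are scaled to each other moved the split of the calls. Scaled by median ratios, 53.4% of all calls in TBX3iso1 against EV were lower, and with quantile normalization 51%, against 65.4% in the deposited scaling. For the guidance genes the share of lower calls in this comparison was 70% as deposited and 63.2% under each of these scalings. Between the TBX3 lines the share of lower calls over all genes was 44.8% as deposited, 55.6% with median ratios and 55.3% with quantile normalization, and it was 87.5% and 88.9% for the guidance genes. The median log2 fold change of all genes moved by less than 0.1 under these scalings, from -0.05 to 0.03 for TBX3iso1 with median ratios. With a pseudocount of 1 RPKM the calls of *EFNA4*, *EPHA1* and *PLXNA2* with TBX3iso1, of *PLXNA3* and *SLIT2* with TBX3iso2 and of *NTN1*, *PLXND1* and *ROBO3* with both were lost.

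**Figure D1:**
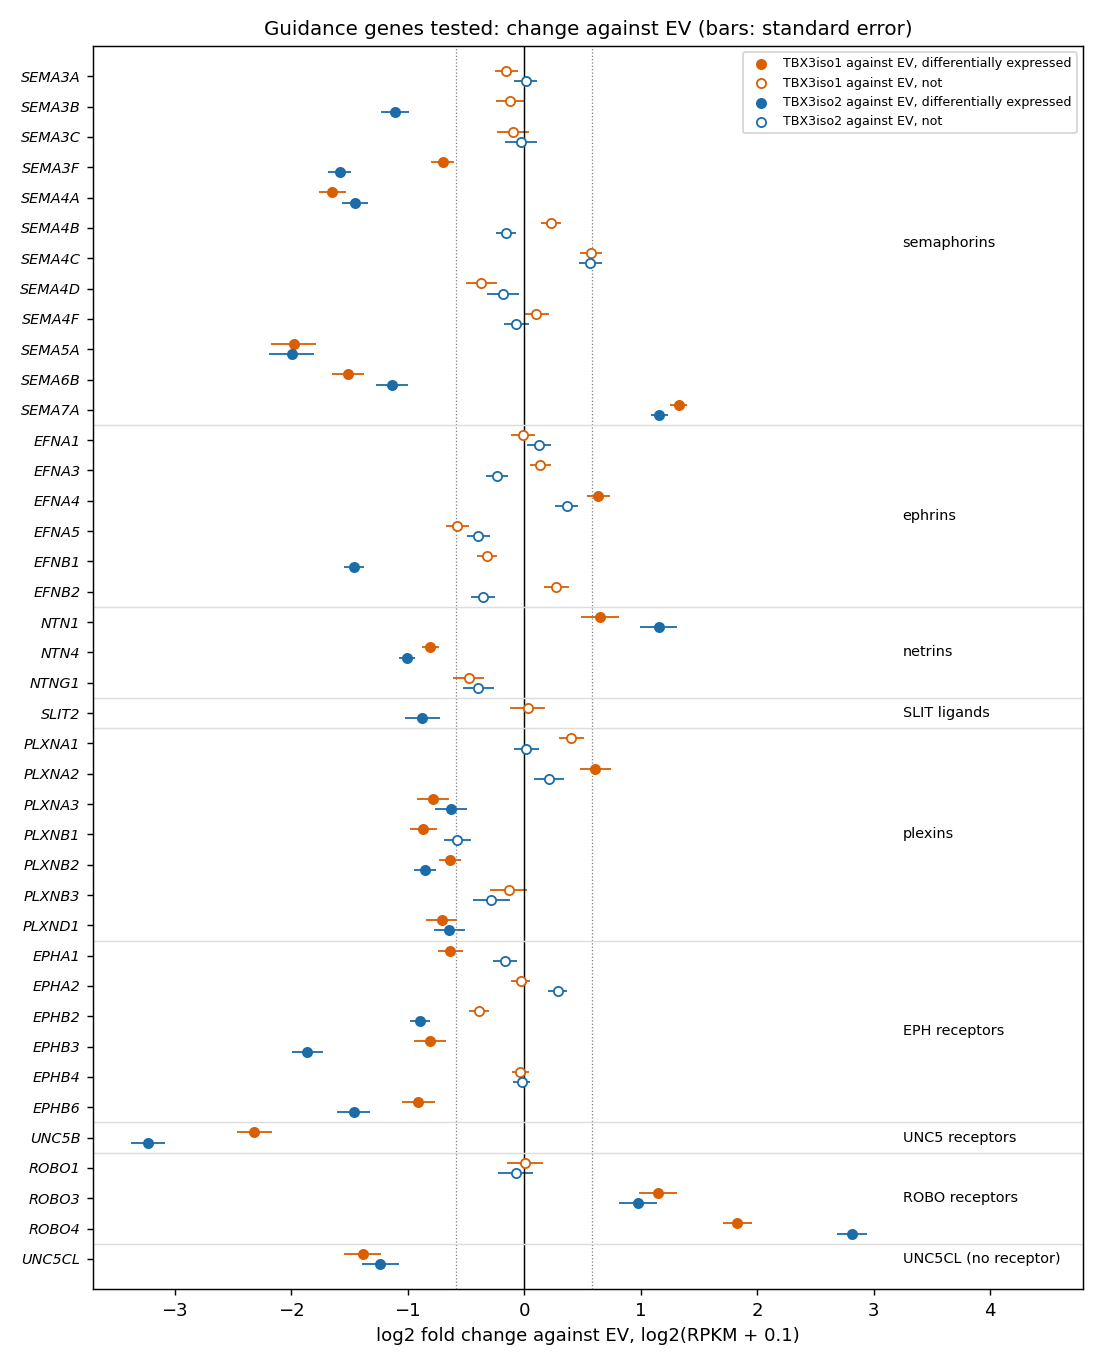
Log2 fold change of each of the 40 guidance genes tested against EV on the log2(RPKM + 0.1) scale (x axis), for TBX3iso1 (orange) and TBX3iso2 (blue), grouped by family from ligands to receptors. Points are limma estimates with 1 standard error, filled where the gene was called, and the dotted lines mark a fold of 1.5. The values run from -3.23 for *UNC5B* to 2.82 for *ROBO4*, both in TBX3iso2.

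The promoters of 4 genes that moved with both isoforms are shown with a search for the sequence that TBX3 family proteins are known to bind. A link between these letters and the response of the genes was not tested. T-box proteins recognise a half-site spelled AGGTGTGA, whose core is GGTGTG. RefSeq promoter windows (GRCh37, 250 bases before to 50 after the RefSeq start) were searched on both strands for both spellings, so that every half-site is also a core. The windows are the minus strand of chr15:74726250-74726549 for *SEMA7A*, the minus strand of chr11:124767712-124768011 for *ROBO4*, the minus strand of chr5:9546138-9546437 for *SEMA5A* and the plus strand of chr7:142560264-142560563 for *EPHB6*. Capitals mark the core, printed 5′ to 3′ on the strand of the gene.
SEMA7A: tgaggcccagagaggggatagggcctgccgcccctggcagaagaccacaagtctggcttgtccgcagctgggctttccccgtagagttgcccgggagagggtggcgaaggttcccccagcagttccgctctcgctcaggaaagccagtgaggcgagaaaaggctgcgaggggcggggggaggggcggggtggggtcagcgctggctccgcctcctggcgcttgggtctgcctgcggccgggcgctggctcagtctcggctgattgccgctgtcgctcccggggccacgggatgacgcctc
ROBO4: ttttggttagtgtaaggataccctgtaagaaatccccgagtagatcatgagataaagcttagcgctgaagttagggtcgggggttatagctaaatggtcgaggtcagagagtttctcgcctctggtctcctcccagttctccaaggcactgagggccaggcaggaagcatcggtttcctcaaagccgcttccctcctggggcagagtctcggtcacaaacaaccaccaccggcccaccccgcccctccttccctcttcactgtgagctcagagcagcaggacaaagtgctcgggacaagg
SEMA5A: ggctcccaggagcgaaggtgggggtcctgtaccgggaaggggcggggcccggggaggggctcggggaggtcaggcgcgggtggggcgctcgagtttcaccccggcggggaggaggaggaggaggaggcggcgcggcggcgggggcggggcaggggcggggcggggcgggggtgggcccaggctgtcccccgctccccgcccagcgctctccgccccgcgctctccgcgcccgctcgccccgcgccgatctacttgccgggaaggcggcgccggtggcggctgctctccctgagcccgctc
EPHB6: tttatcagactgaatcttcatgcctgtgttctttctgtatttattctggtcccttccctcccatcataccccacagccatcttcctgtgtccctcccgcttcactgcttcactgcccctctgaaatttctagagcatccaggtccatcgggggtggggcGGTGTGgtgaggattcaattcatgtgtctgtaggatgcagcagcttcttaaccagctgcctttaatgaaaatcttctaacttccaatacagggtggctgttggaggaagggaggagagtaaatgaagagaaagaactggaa

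The core begins at position -91 from the RefSeq start of *EPHB6*, and the other 3 windows do not hold these letters. This window lies inside *EPHB6* as GENCODE annotates it (chr7:142552823-142568847), downstream of the first annotated start, and so does that of *ROBO4* within its gene. Of the 16 genes called with both isoforms, 13 had a window, and *EPHB6* was the 1 of them with the core. That is 7.69% of the windows of the genes called with both isoforms. A window was matched for 64 of the 73 rows, of which 9 held the core (14.1%) and 1 the half-site. For the tested rows there were 36 windows, of which 3 held the core (8.33%). Across all 27305 windows 4507 held the core (16.5%) and 268 the half-site (0.982%). A match of letters is not a binding site, and the absence of these letters does not exclude one. *UNC5CL* is an example, as its window lacks the core. The paper lists it among the genes with changed expression that both isoforms bound at overlapping places and that hold a T-box element. That list rests on chromatin immunoprecipitation with promoter arrays. The T-box element that the paper tested in *SNAI2* does not hold this core either, so the search would miss it. Binding at the other guidance genes was not examined here. *UNC5B*, *SEMA6B* and *NTN1* are named only.

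Semaphorins were the family with the most tested members. Of 20 semaphorin genes, 12 were tested, and 5 differed with TBX3iso1 (1 higher, 4 lower) and 6 with TBX3iso2 (1 higher, 5 lower), 41.7% and 50% against 21.5% and 21.2% of all genes. The falls were in transmembrane and secreted members alike, and the rise was in the lipid-anchored *SEMA7A*. In a bulk library fewer expressing cells and less RNA per cell cannot be told apart, here and in every result that follows.

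*SEMA7A*, which binds integrins and plexin C1, was at 7.51 and 7.24 RPKM in EV, 18.9 and 18.4 RPKM in TBX3iso1 and 16.9 and 16.3 RPKM in TBX3iso2. Both TBX3 lines lay above EV without overlap. It rose 2.51-fold with TBX3iso1 (log2 fold change 1.33, SE 0.07, limma adjusted p = 1.79e-05) and 2.23-fold with TBX3iso2 (1.16, SE 0.07, limma adjusted p = 3.12e-05). Its gene lies at chr15:74701630-74726299 on the minus strand. The gene of its plexin, *PLXNC1*, was under the filter, at 0.173 and 0.227 RPKM in EV, 0.0484 and 0.0565 RPKM in TBX3iso1 and 0.0737 and 0.0918 RPKM in TBX3iso2.

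*SEMA5A*, a transmembrane semaphorin with thrombospondin repeats, was at 3.02 and 2.98 RPKM in EV, 0.776 and 0.606 RPKM in TBX3iso1 and 0.812 and 0.563 RPKM in TBX3iso2. The 4 TBX3 libraries lay below EV and the 2 TBX3 lines overlapped. It fell 3.94-fold with TBX3iso1 (log2 fold change -1.98, SE 0.19, limma adjusted p = 0.000205) and 3.99-fold with TBX3iso2 (-2.0, SE 0.19, limma adjusted p = 0.0002). Among the 40 genes it had the widest gap between the replicates of TBX3iso1 and of TBX3iso2, 0.31 and 0.46 on the log2 scale. An antisense gene overlaps it in the annotation.

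*SEMA4A*, a transmembrane semaphorin known from immune cells and the retina, was at 8.77 and 8.96 RPKM in EV, 2.69 and 2.85 RPKM in TBX3iso1 and 3.50 and 2.89 RPKM in TBX3iso2. Its fall was 3.13-fold with TBX3iso1 (log2 fold change -1.64, SE 0.11, limma adjusted p = 4.62e-05) and 2.73-fold with TBX3iso2 (-1.45, SE 0.11, limma adjusted p = 7.86e-05). *SEMA6B*, a transmembrane ligand of A class plexins, showed the same order of lines. It was at 4.97 and 4.74 RPKM in EV, 1.60 and 1.66 RPKM in TBX3iso1 and 1.89 and 2.46 RPKM in TBX3iso2, with log2 fold changes of -1.52 (SE 0.14, limma adjusted p = 0.000157) and -1.13 (SE 0.14, limma adjusted p = 0.00057). For neither gene was the difference between the TBX3 lines called.

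The secreted semaphorins *SEMA3F* and *SEMA3B*, which signal through neuropilins and plexins, are neighbours on chromosome 3 (chr3:50192478-50226508 and chr3:50304990-50314977, both on the plus strand, 78.5 kb apart). *SEMA3F* was at 20.4 and 18.1 RPKM in EV, 12.4 and 11.2 RPKM in TBX3iso1 and 5.99 and 6.71 RPKM in TBX3iso2. The 3 lines stood in steps without overlap. Its log2 fold change was -0.70 with TBX3iso1 (SE 0.10, limma adjusted p = 0.00125), -1.58 with TBX3iso2 (SE 0.10, limma adjusted p = 3.26e-05) and -0.88 between the TBX3 lines (SE 0.10, limma adjusted p = 0.00201).

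In the second gene, *SEMA3B*, the level was 2.69 and 2.47 RPKM in EV, 2.37 and 2.35 RPKM in TBX3iso1 and 1.08 and 1.22 RPKM in TBX3iso2. TBX3iso2 stood apart from both other lines. Its log2 fold change was -1.11 with TBX3iso2 (SE 0.12, limma adjusted p = 0.00035) and -0.98 between the TBX3 lines (SE 0.12, limma adjusted p = 0.00276), and with TBX3iso1 it was -0.12 (95% interval -0.40 to 0.16). Both genes overlap an antisense gene in the annotation, and whether the counting used the strand is not given in the sources used here.

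*SEMA4B* had the highest level of the family, 36.1 and 32.9 RPKM in EV, 42.8 and 38.2 RPKM in TBX3iso1 and 31.0 and 30.8 RPKM in TBX3iso2, and was not called in any comparison. *SEMA4C*, a ligand of plexin B2, stood just under the fold threshold with both isoforms, at log2 fold changes of 0.58 (limma adjusted p = 0.00251) and 0.57 (limma adjusted p = 0.00253). The class 3 members *SEMA3A* and *SEMA3C*, *SEMA4D* and *SEMA4F* were not called, with log2 fold changes against EV from -0.37 to 0.11. For *SEMA3A*, the best known repellent of the family, the 95% interval was -0.38 to 0.08 with TBX3iso1 and -0.22 to 0.25 with TBX3iso2. Summed over the 20 genes, semaphorin RPKM was 122 and 114 in EV, 126 and 114 in TBX3iso1 and 106 and 102 in TBX3iso2.

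**Figure D2:**
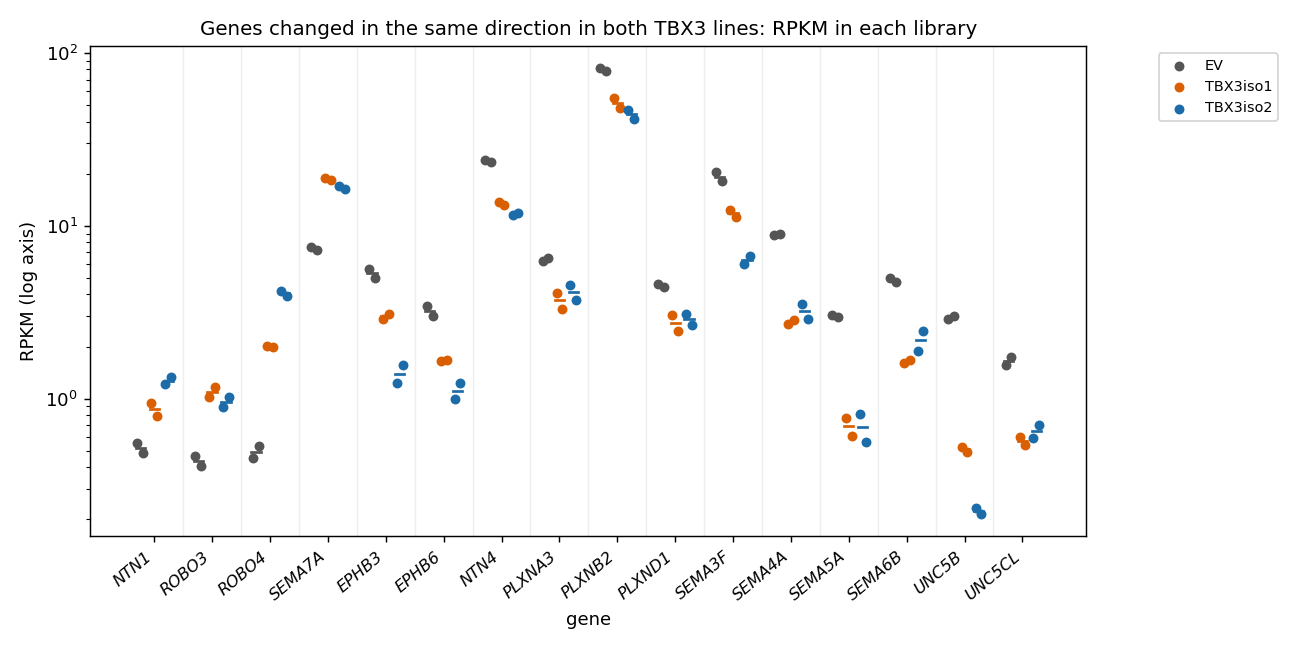
RPKM in each of the 6 libraries (y axis, log scale) for the 16 genes called in the same direction against EV in both TBX3 lines, the 4 higher genes first. Points are libraries and short lines are means of 2 libraries, for EV (grey), TBX3iso1 (orange) and TBX3iso2 (blue). Each EV pair lies apart from all 4 TBX3 libraries of the gene, and in *ROBO4*, *EPHB3*, *SEMA3F* and *UNC5B* the 2 TBX3 lines also differed past the threshold.

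Of 8 ephrin genes, 6 were tested, and 1 differed with TBX3iso1 and 1 with TBX3iso2. That is 16.7% in each case, where 21.5% and 21.2% of all genes differed. With 6 genes these counts are near those shares. *EFNB1*, a membrane-spanning ligand of EPHB receptors, was at 8.34 and 8.10 RPKM in EV, 6.75 and 6.42 RPKM in TBX3iso1 and 2.85 and 3.01 RPKM in TBX3iso2. It fell 2.75-fold with TBX3iso2 (log2 fold change -1.46, SE 0.09, limma adjusted p = 2.59e-05) and was lower in TBX3iso2 than in TBX3iso1 by -1.14 on the log2 scale (SE 0.09, limma adjusted p = 0.000376). With TBX3iso1 its log2 fold change against EV was -0.32 (limma adjusted p = 0.0213), under the fold threshold. *EFNB1* had the largest difference between the TBX3 lines of the 40 genes.

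*EFNB2*, the ligand of EPHB4, had the highest ephrin level. It was at 45.0 and 43.6 RPKM in EV, 55.9 and 51.6 RPKM in TBX3iso1 and 38.6 and 31.2 RPKM in TBX3iso2. Neither TBX3 line passed the threshold against EV, with log2 fold changes of 0.28 (limma adjusted p = 0.0671) and -0.35 (limma adjusted p = 0.0293), while the TBX3 lines differed by -0.63 (SE 0.11, limma adjusted p = 0.00904). Without the first TBX3iso1 library this difference was -0.57, and without the second TBX3iso2 library it was -0.48, each under the fold threshold.

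*EFNA4*, a lipid-anchored ephrin, was at 6.83 and 6.59 RPKM in EV, 9.94 and 11.1 RPKM in TBX3iso1 and 8.11 and 9.28 RPKM in TBX3iso2. It was higher with TBX3iso1 by a log2 fold change of 0.64 (SE 0.10, limma adjusted p = 0.00179), and by 0.56 without the second TBX3iso1 library, which ends the call. A readthrough gene joins *EFNA4* to its neighbour *EFNA3*, so reads may be split between them. *EFNA1*, *EFNA3* and *EFNA5* were not called, with log2 fold changes against EV from -0.57 to 0.14. *EFNA5* came closest, at -0.57 with TBX3iso1 (limma adjusted p = 0.00289).

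Of 14 EPH receptor genes, 6 were tested, and 3 were lower with TBX3iso1 and 3 with TBX3iso2, where 14.1% and 12.3% of all genes were lower. None was called higher in either comparison. *EPHB3*, a receptor tyrosine kinase of B class ephrins, was at 5.61 and 4.99 RPKM in EV, 2.88 and 3.09 RPKM in TBX3iso1 and 1.23 and 1.55 RPKM in TBX3iso2. The lines stood in steps without overlap. The log2 fold change was -0.81 with TBX3iso1 (SE 0.14, limma adjusted p = 0.00259), -1.86 with TBX3iso2 (SE 0.14, limma adjusted p = 5.98e-05) and -1.05 between the TBX3 lines (SE 0.14, limma adjusted p = 0.00314).

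*EPHB6*, whose kinase domain is inactive, was at 3.43 and 2.99 RPKM in EV, 1.65 and 1.67 RPKM in TBX3iso1 and 0.989 and 1.22 RPKM in TBX3iso2. Its promoter window above holds the T-box core, and whether this bears on its level was not tested. Its log2 fold change was -0.91 with TBX3iso1 (SE 0.14, limma adjusted p = 0.0018) and -1.46 with TBX3iso2 (SE 0.14, limma adjusted p = 0.000208). Between the TBX3 lines it was -0.55 (limma adjusted p = 0.0391), under the fold threshold, and -0.60 and past it with median-ratio scaling.

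*EPHB2*, a close relative of *EPHB3*, was at 11.2 and 10.4 RPKM in EV, 8.41 and 8.11 RPKM in TBX3iso1 and 6.02 and 5.56 RPKM in TBX3iso2. It was called with TBX3iso2 (log2 fold change -0.89, SE 0.09, limma adjusted p = 0.000203), and with TBX3iso1 it was -0.38 (limma adjusted p = 0.0089). *EPHA1* was at 4.05 and 3.59 RPKM in EV, 2.44 and 2.41 RPKM in TBX3iso1 and 3.39 and 3.40 RPKM in TBX3iso2, with TBX3iso1 below both other lines. With TBX3iso1 the log2 fold change was -0.63 (SE 0.10, limma adjusted p = 0.0024). It was -0.55 without the first EV library, -0.55 with median-ratio scaling and -0.44 with quantile normalization, each under the fold threshold, and 2 genes on the other strand overlap it.

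The EPH receptors with the highest levels, *EPHA2* and *EPHB4*, were not called in any comparison. *EPHA2*, a receptor of A class ephrins abundant in epithelial cells, was at 68.9 and 64.2 RPKM in EV, 68.3 and 62.2 RPKM in TBX3iso1 and 83.1 and 79.7 RPKM in TBX3iso2, a log2 fold change of 0.29 with TBX3iso2 (limma adjusted p = 0.0224) that is under the fold threshold. *EPHB4*, the receptor of EFNB2, was at 60.0 and 55.3 RPKM in EV, 56.0 and 56.6 RPKM in TBX3iso1 and 55.4 and 58.1 RPKM in TBX3iso2. Its 95% interval was -0.21 to 0.14 with TBX3iso1 and -0.19 to 0.15 with TBX3iso2, so a change of 1.5-fold lies outside both. Summed EPH receptor RPKM was 154 and 143 in EV, 141 and 135 in TBX3iso1 and 151 and 151 in TBX3iso2, of which *EPHA2* made up 44.7% to 54.9% and *EPHB4* 36.6% to 41.8%. The lower members *EPHB2*, *EPHB3* and *EPHB6* took 7.26%, 3.64% and 2.22% of the sum in the first EV library and 3.98%, 0.815% and 0.654% in the first TBX3iso2 library.

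Of 9 plexin genes, 7 were tested, and 5 differed with TBX3iso1 (1 higher, 4 lower) and 3 with TBX3iso2 (all lower), 71.4% and 42.9% against 21.5% and 21.2% of all genes. *PLXNB2*, a receptor of class 4 semaphorins, had the highest level of all guidance genes in EV. It was at 81.4 and 78.2 RPKM in EV, 54.6 and 48.1 RPKM in TBX3iso1 and 46.9 and 41.4 RPKM in TBX3iso2. The log2 fold change was -0.64 with TBX3iso1 (SE 0.09, limma adjusted p = 0.00144) and -0.85 with TBX3iso2 (SE 0.09, limma adjusted p = 0.000364). The first of these was -0.55 without the second TBX3iso1 library and -0.55 with median-ratio scaling, each under the fold threshold.

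*PLXNB1*, the receptor of SEMA4D, was at 5.07 and 4.65 RPKM in EV, 2.81 and 2.45 RPKM in TBX3iso1 and 3.46 and 3.02 RPKM in TBX3iso2. It was lower with TBX3iso1 (log2 fold change -0.86, SE 0.12, limma adjusted p = 0.00107). With TBX3iso2 it was -0.57 (limma adjusted p = 0.00666), just under the fold threshold, and it passed at -0.63 without the second EV library and at -0.67 without the first TBX3iso2 library. *PLXND1*, a receptor of class 3 semaphorins with a known part in blood vessel patterning, was at 4.62 and 4.42 RPKM in EV, 3.04 and 2.45 RPKM in TBX3iso1 and 3.09 and 2.65 RPKM in TBX3iso2. Its log2 fold changes were -0.71 (SE 0.13, limma adjusted p = 0.00444) and -0.64 (SE 0.13, limma adjusted p = 0.00666). Neither call held throughout: with quantile normalization they were -0.54 and -0.52, without the second TBX3iso1 library the first was -0.56, without the second TBX3iso2 library the second was -0.54, and without the first EV library the second was -0.61 with a limma adjusted p of 0.0588.

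*PLXNA3*, a receptor partner of neuropilins whose gene overlaps *LAGE3* on the other strand, was at 6.24 and 6.52 RPKM in EV, 4.09 and 3.30 RPKM in TBX3iso1 and 4.51 and 3.72 RPKM in TBX3iso2. Its log2 fold changes were -0.78 (SE 0.14, limma adjusted p = 0.00302) and -0.63 (SE 0.14, limma adjusted p = 0.00782). The second was -0.49 without the second TBX3iso2 library, -0.59 without the second EV library (limma adjusted p = 0.0653) and -0.55 with quantile normalization, so it is not called there. *PLXNA2* was the plexin that was higher, at 3.64 and 3.47 RPKM in EV, 5.83 and 5.17 RPKM in TBX3iso1 and 4.67 and 3.67 RPKM in TBX3iso2. With TBX3iso1 the log2 fold change was 0.61 (SE 0.13, limma adjusted p = 0.00762), 0.53 without the first TBX3iso1 library and 0.58 without the second EV library, where the call was lost.

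*PLXNA1* and *PLXNB3* were not called in any comparison, with log2 fold changes against EV from -0.28 to 0.41. Summed plexin RPKM was 141 and 134 in EV, 125 and 108 in TBX3iso1 and 103 and 90.8 in TBX3iso2, of which *PLXNB2* made up 43.5% to 58.5%. *PLXNA1* was the next plexin in level in every line, at 25.9% to 41.9% of the sum. Of the 7 tested plexins none was called between the TBX3 lines, where *PLXNA1* was at -0.39 (limma adjusted p = 0.0488), under the fold threshold.

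**Figure D3:**
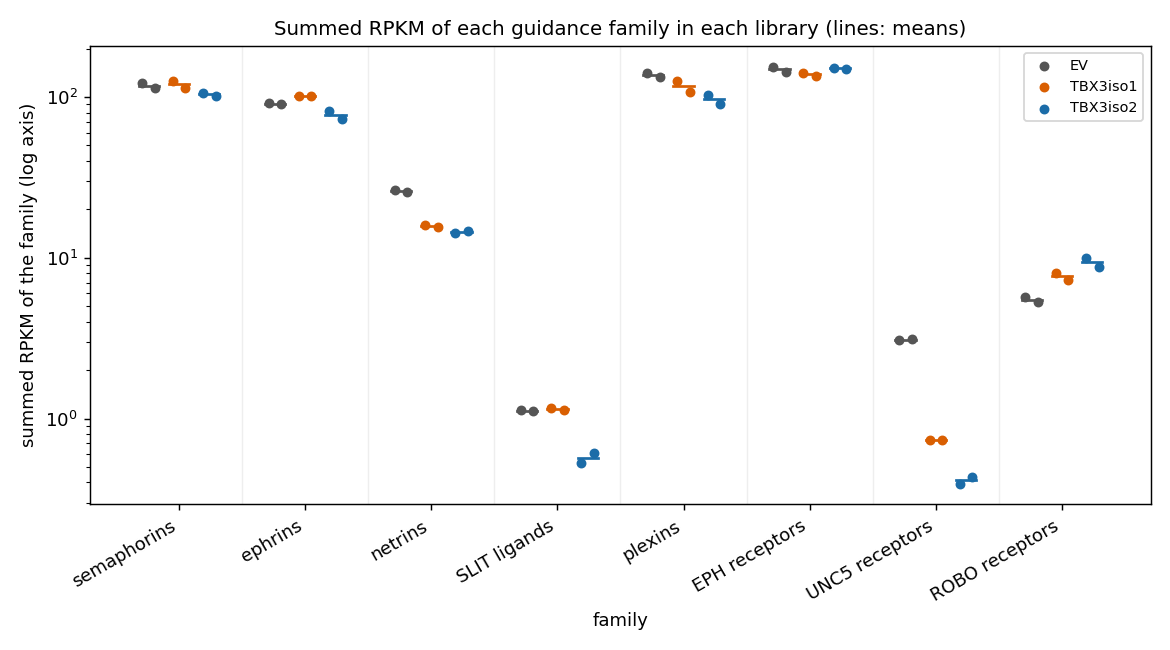
Summed RPKM of each family (y axis, log scale) in each of the 6 libraries, for EV (grey), TBX3iso1 (orange) and TBX3iso2 (blue). Points are libraries and short lines are means of 2 libraries. Netrin and UNC5 sums are lower in the 4 TBX3 libraries than in EV and the ROBO sum is higher, while semaphorin sums run from 102 to 126 RPKM and EPH sums from 135 to 154 RPKM over all libraries.

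Of 6 netrin genes, 3 were tested, and *NTN4* and *NTN1* moved in opposite directions in both comparisons with EV. *NTN4*, a netrin related to laminins and a part of basement membranes, was at 23.9 and 23.3 RPKM in EV, 13.8 and 13.2 RPKM in TBX3iso1 and 11.6 and 11.8 RPKM in TBX3iso2. It fell 1.75-fold with TBX3iso1 (log2 fold change -0.80, SE 0.07, limma adjusted p = 0.000136) and 2.01-fold with TBX3iso2 (-1.01, SE 0.07, limma adjusted p = 5.26e-05). *NTN4* held 80.5% to 90.1% of the summed netrin RPKM, and the sum was 26.6 and 25.8 RPKM in EV, 16.0 and 15.5 RPKM in TBX3iso1 and 14.4 and 14.6 RPKM in TBX3iso2.

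*NTN1*, the netrin that binds DCC and UNC5 receptors, was at 0.551 and 0.481 RPKM in EV, 0.946 and 0.792 RPKM in TBX3iso1 and 1.21 and 1.33 RPKM in TBX3iso2. These are low levels, and the lines did not overlap. It rose 2.23-fold with TBX3iso2 (log2 fold change 1.15, SE 0.16, limma adjusted p = 0.00108) and 1.57-fold with TBX3iso1 (0.65, SE 0.16, limma adjusted p = 0.0138). The call with TBX3iso1 was lost without the second EV library (0.57, limma adjusted p = 0.0991) and without the first TBX3iso1 library (0.54, limma adjusted p = 0.0723). *NTNG1*, a lipid-anchored relative, was at log2 fold changes of -0.48 and -0.39, under the fold threshold.

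*UNC5B*, the only UNC5 receptor gene tested of 3 in the table, had the largest fall of the 40 genes tested. Its means were 0.510 RPKM in TBX3iso1 and 0.224 RPKM in TBX3iso2, and the TBX3 libraries together fall below the filter on low values. It passed only through EV, so that it had to be higher there to be tested and its count says nothing about the family. UNC5B binds netrin-1 and is also known to bind FLRT3. It was at 2.89 and 2.99 RPKM in EV, 0.526 and 0.494 RPKM in TBX3iso1 and 0.233 and 0.215 RPKM in TBX3iso2. The lines stood in steps without overlap. It fell 4.98-fold with TBX3iso1 (log2 fold change -2.32, SE 0.15, limma adjusted p = 3.48e-05) and 9.38-fold with TBX3iso2 (-3.23, SE 0.15, limma adjusted p = 9.72e-06). TBX3iso2 was lower than TBX3iso1 by -0.91 (SE 0.15, limma adjusted p = 0.00777), which became -0.30 with a pseudocount of 1 RPKM.

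At the length of its GENCODE canonical transcript, the *UNC5B* values stand for about 1077 and 882 reads in EV and about 81 and 64 reads in TBX3iso2. The antisense gene *UNC5B-AS1*, which overlaps *UNC5B* (chr10:72972327-73062621), was at 0.210 and 0.443 RPKM in EV and listed at 0 in both TBX3iso2 libraries. *UNC5CL*, counted apart from the receptors, was at 1.56 and 1.75 RPKM in EV, 0.603 and 0.540 RPKM in TBX3iso1 and 0.591 and 0.705 RPKM in TBX3iso2. Its log2 fold changes were -1.39 (SE 0.16, limma adjusted p = 0.000458) and -1.23 (SE 0.16, limma adjusted p = 0.000741), and a gene on the same strand, *OARD1*, overlaps it.

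*SLIT2*, the only slit gene tested of 3, was at 1.10 RPKM in each EV library, 1.14 and 1.11 RPKM in TBX3iso1 and 0.513 and 0.601 RPKM in TBX3iso2. SLIT2 is a secreted ligand of receptors of the ROBO family, and which members bind it was not examined here. TBX3iso2 lay below both other lines. The log2 fold change was -0.87 with TBX3iso2 (SE 0.15, limma adjusted p = 0.00249), -0.90 between the TBX3 lines (SE 0.15, limma adjusted p = 0.00777) and 0.03 with TBX3iso1 (95% interval -0.31 to 0.37).

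Of 4 ROBO receptor genes, 3 were tested. Those called, *ROBO3* and *ROBO4*, had EV means of 0.438 and 0.492 RPKM and passed the filter on low values only through the TBX3 lines, so that they had to be higher there to be tested and their count says nothing about the family. *ROBO4*, known from endothelial cells, was at 0.454 and 0.530 RPKM in EV, 2.0 RPKM in each TBX3iso1 library and 4.19 and 3.94 RPKM in TBX3iso2. The lines stood in steps without overlap. It rose 3.56-fold with TBX3iso1 (log2 fold change 1.83, SE 0.13, limma adjusted p = 4.67e-05) and 7.05-fold with TBX3iso2 (2.82, SE 0.13, limma adjusted p = 9.31e-06), and TBX3iso2 was above TBX3iso1 by 0.99 (SE 0.13, limma adjusted p = 0.00311). Of the endothelial markers, *CDH5*, *VWF*, *KDR*, *TEK* and *TIE1* stayed at or below 0.187 RPKM in every library, and *PECAM1* was 7.12 and 7.46 RPKM in EV and at most 1.37 RPKM in the TBX3 lines.

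*ROBO3*, which sets the slit response of crossing axons, was at 0.467 and 0.409 RPKM in EV, 1.02 and 1.16 RPKM in TBX3iso1 and 0.892 and 1.03 RPKM in TBX3iso2. It rose 2.22-fold with TBX3iso1 (log2 fold change 1.15, SE 0.16, limma adjusted p = 0.00116) and 1.97-fold with TBX3iso2 (0.98, SE 0.16, limma adjusted p = 0.00235). Both calls were lost with a pseudocount of 1 RPKM, at 0.54 and 0.45. *ROBO3* (chr11:124735328-124751367, plus strand) and *ROBO4* (chr11:124753587-124768396, minus strand) end toward each other with 2220 bases between them.

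*ROBO1*, the receptor with the highest level of the family, was at 4.79 and 4.34 RPKM in EV, 5.06 and 4.15 RPKM in TBX3iso1 and 4.96 and 3.77 RPKM in TBX3iso2. Its 95% interval was -0.35 to 0.37 with TBX3iso1 and -0.43 to 0.28 with TBX3iso2. Summed ROBO RPKM was 5.71 and 5.28 in EV, 8.09 and 7.33 in TBX3iso1 and 10.0 and 8.74 in TBX3iso2. The share of *ROBO4* in this sum was 7.95% and 10.1% in EV, 24.8% and 27.3% in TBX3iso1 and 41.7% and 45.1% in TBX3iso2.

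**Figure D4:**
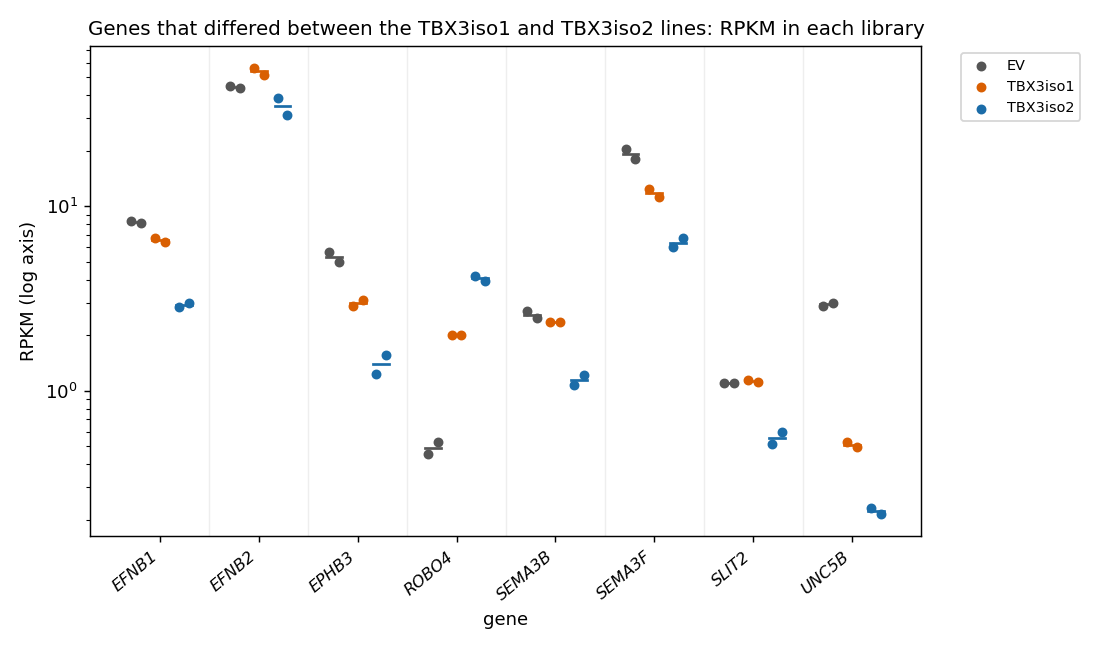
RPKM in each of the 6 libraries (y axis, log scale) for the 8 genes that differed between TBX3iso2 and TBX3iso1, with EV (grey), TBX3iso1 (orange) and TBX3iso2 (blue). Points are libraries and short lines are means of 2 libraries. In 7 genes the TBX3iso2 pair lies below the TBX3iso1 pair, and in *ROBO4* it lies above.

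Of the 8 genes that differed between the TBX3 lines, 5 are ligands (*EFNB1*, *EFNB2*, *SEMA3B*, *SEMA3F* and *SLIT2*) and 3 are receptors (*EPHB3*, *UNC5B* and *ROBO4*). On unlogged RPKM without moderation the calls of *EFNB2*, *EPHB3*, *SEMA3B*, *SEMA3F* and *UNC5B* between these lines were lost, and with a pseudocount of 1 RPKM those of *SLIT2* and *UNC5B*. Ligand RPKM summed to 242 and 231 in EV, 245 and 232 in TBX3iso1 and 203 and 190 in TBX3iso2. Receptor RPKM summed to 304 and 285 in EV, 275 and 251 in TBX3iso1 and 265 and 251 in TBX3iso2. The ligand sum was thus lower in TBX3iso2 than in both other lines, and the receptor sums of the TBX3 lines overlapped. These sums are a description, and no test was run on them.

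The other 33 rows were below the filter and were not tested, 14 of them under 0.1 RPKM in every library. Without the filter, 7 of them passed the threshold with TBX3iso1, 7 with TBX3iso2 and 4 between the TBX3 lines, where 16.4%, 16.3% and 3.68% of all 20824 genes did. These shares include the genes above the filter, and the share among genes below it was not counted, so the counts are not read against them. *PLXNA4*, a plexin that SEMA6B is known to bind, was at 0.0191 and 0.0112 RPKM in EV, 0.703 and 0.584 RPKM in TBX3iso1 and 0.177 and 0.132 RPKM in TBX3iso2. That is a step of about 13 and 6 reads in EV to 464 and 380 reads in TBX3iso1 at the length of its canonical transcript. *PLXNA4* was higher with both isoforms in that fit and lower in TBX3iso2 than in TBX3iso1. *EPHA4*, *PLXNC1*, *SEMA6C* and *UNC5B-AS1* were lower with both isoforms. *EPHA3* was higher and *SEMA3E* lower with TBX3iso1, and *EPHA6* and *EPHA10* were higher with TBX3iso2. Between the TBX3 lines *EPHA3* and *SEMA3G* were lower in TBX3iso2 and *SEMA3E* was higher.

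The highest values of the untested semaphorins were 0.424 RPKM for *SEMA3D*, 0.267 RPKM for *SEMA3E*, 0.209 RPKM for *SEMA3G*, 0.363 RPKM for *SEMA4G*, 0.0618 RPKM for *SEMA5B*, 0.0582 RPKM for *SEMA6A*, 0.506 RPKM for *SEMA6C* and 0.0041 RPKM for *SEMA6D*. Those of the ephrins were 0.172 RPKM for *EFNA2* and 0.624 RPKM for *EFNB3*. Those of the EPH receptors were 0.496 RPKM for *EPHA3*, 0.475 RPKM for *EPHA4*, 0.0124 RPKM for *EPHA5*, 0.202 RPKM for *EPHA6*, 0.249 RPKM for *EPHA7*, 0.0251 RPKM for *EPHA8*, 0.472 RPKM for *EPHA10* and 0.0307 RPKM for *EPHB1*. Most of these genes are known from the nervous system, and none reached 1 RPKM here. Those of the netrins were 0.0455 RPKM for *NTN3*, 0.166 RPKM for *NTN5* and 0.0163 RPKM for *NTNG2*. *UNC5A* reached 0.236 RPKM, *UNC5C* 0.0176 RPKM, *SLIT1* 0.0150 RPKM, *SLIT3* 0.0151 RPKM and *ROBO2* 0.0140 RPKM. The antisense rows *EPHA1-AS1*, *EPHA5-AS1*, *SEMA3B-AS1* and *SEMA6A-AS1* reached 0.0406, 0.0214, 0.224 and 0.119 RPKM.

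Co-receptors and further ligands were read from a list of 13 genes, of which 6 were tested. In each of the 3 comparisons 1 of them was lower and none was higher, where 14.1%, 12.3% and 2.82% of all genes were lower, and it was *FLRT3*, a ligand of UNC5B. *FLRT3* was at 3.11 and 3.39 RPKM in EV, 1.42 and 1.5 RPKM in TBX3iso1 and 0.913 and 0.822 RPKM in TBX3iso2. The lines stood in steps without overlap, with log2 fold changes of -1.10 (limma adjusted p = 0.000453), -1.79 (limma adjusted p = 5.1e-05) and -0.69 between the TBX3 lines (limma adjusted p = 0.0117). The neuropilins *NRP1* and *NRP2* were not called. *DCC*, the attractive netrin receptor, did not exceed 0.0056 RPKM in any library, and its relative *NEO1* was at 4.37 to 7.18 RPKM without a call.

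Intracellular effectors were read from a list of 40 genes, of which 32 were tested. With TBX3iso1 2 were higher and 5 lower, with TBX3iso2 4 were higher and 3 lower, and between the TBX3 lines 1 was higher and 1 lower. These counts lie near the shares of all genes called, 21.5%, 21.2% and 6.29%, and the genes are given as single values. The guanine exchange factor *VAV3*, which acts under EPH receptors, was at 11.1 RPKM in each EV library, 3.48 and 3.56 RPKM in TBX3iso1 and 5.93 and 4.85 RPKM in TBX3iso2, with log2 fold changes of -1.63 (limma adjusted p = 4.09e-05) and -1.04 (limma adjusted p = 0.000289). It was the effector that was higher in TBX3iso2 than in TBX3iso1, by 0.59 (limma adjusted p = 0.0122). *SRGAP3*, a GTPase-activating protein under ROBO receptors, fell with both isoforms, by log2 fold changes of -1.40 and -1.65, and *SRGAP1* with TBX3iso1 (-0.86).

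*NGEF*, the EPH-linked exchange factor ephexin-1, rose with both isoforms, by log2 fold changes of 1.09 and 1.09, and so did the adaptor *NCK2* (0.94 and 0.89). *ENAH*, an actin regulator, and *ARHGEF16* were lower with TBX3iso1 alone past the threshold, at -0.67 and -0.64. With TBX3iso2 alone past it were the kinases *FYN* (-1.30, and -0.84 between the TBX3 lines) and *PAK1* (0.73) and the exchange factor *ARHGEF26* (0.69). The median log2 fold change of the 32 effectors was -0.07 with TBX3iso1 and -0.01 with TBX3iso2.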

How the data were processed

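Paired-end reads of stranded mRNA libraries were aligned by the authors to hg19 with TopHat, and the deposited values are RPKM from Partek Genomics Suite, 1 per gene and library. Versions and the annotation are not given in the sources used here. The number of columns of unmatched samples was 0. Groups came from the sample labels, 2 libraries per line.

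Genes were kept at a mean of 0.5 RPKM or more across all 6 libraries, and these 12805 were fitted with limma 3.58.1 in R 4.3.3 on log2(RPKM + 0.1), with 1 mean per line, a trended empirical Bayes moderation and Benjamini-Hochberg adjustment over all genes tested. Folds are on this scale and understate the change of low genes. A call needed an adjusted p under 0.05 and a fold over 1.5. The model was tested on simulated data. Depth was 43176600 to 54512400 alignments. Gene counts were not used here, so read numbers are estimates from canonical transcript lengths.

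Positions come from GENCODE lifted to GRCh37 (73 of 73 rows matched by symbol), and promoters from RefSeq, each matched once to GRCh37. Overlapping genes are uncertain. Named are all tested members called in any comparison, the member with the highest EV mean of each family, TBX3 and the called genes of the partner lists. Other members are given by ranges or highest values, and those described further (among them *SEMA3A*, *SEMA4C*, *EFNA5*, *EPHB4*, *PLXNA4*, *EPHA3*, *EPHA4* and *UNC5B-AS1*) were chosen after their values were seen. The members and lists were chosen with earlier results of these data known. A few listed genes were not analysed here. Alternatives were other pseudocounts, filters, scalings, models and leaving out each library.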

Additional observations from a re-analysis of the deposited data

Results flagged for a closer look

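Of the guidance genes that differed between the TBX3 lines, 2 had log2 fold changes of opposite sign against EV. *EFNB2* was lower in TBX3iso2 than in TBX3iso1 by -0.63 on the log2 scale, at 0.28 with TBX3iso1 and -0.35 with TBX3iso2 against EV. *SLIT2* was lower in TBX3iso2 than in TBX3iso1 by -0.90, at 0.03 and -0.87 against EV. The difference itself was tested with limma over all genes, with adjusted p of 0.00904 and 0.00777. For *SLIT2* the value with TBX3iso1 lies within its error of 0.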

How the results depend on the processing

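Of the 48 calls on guidance genes over the 3 comparisons, 30 were kept under every alternative in which the gene was fitted. The other 18 were lost under at least 1, of which 9 were lost with 1 library left out. The filter at 2 RPKM removed *EPHB6*, *NTN1*, *ROBO3*, *SEMA5A*, *SLIT2*, *UNC5B* and *UNC5CL*. Their calls were not tried there and count as neither kept nor lost. No log2 fold change of a called gene changed sign. With a pseudocount of 1 RPKM the genes called higher were 2 with TBX3iso1 and 2 with TBX3iso2, against 6 and 4, because a larger pseudocount shrinks folds. Over all genes the higher calls were then 654 and 784, against 955 and 1145. Without a filter on low values 7 were higher with TBX3iso2 and 2 between the TBX3 lines, over 73 genes, and the median log2 fold change with TBX3iso2 was -0.16. Of all 20824 genes 1329 and 390 were then higher, against 1145 and 444 of 12805. With a filter at 2 RPKM 30 guidance genes were tested and 2 were higher with TBX3iso2, where 868 of all 10313 genes were. Lower calls were then 10 with TBX3iso1 and 11 with TBX3iso2, where 1158 and 1026 of all genes were lower. On unlogged RPKM without moderation 2 were lower between the TBX3 lines, against 7 (the cause was not tested). Over all genes the lower calls between these lines were 93, against 361. The replicate block, which uses a number that marks no shared culture or day in the labels, gave the same counts for the guidance genes (6 and 14, 4 and 16, 1 and 7), and the same-numbered libraries deviated together with a correlation across genes of 0.22, 0.114 and 0.499 for the 3 pairs of lines. Depth in RPKM gives no counts, so the precision of the lowest genes rests on 2 libraries per line.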
